A study of Mus musculus with 54 samples.

Results

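The expanded clonotypes of 18 mouse B16F10 melanomas were all entries of the T cell receptor beta chain (TRB) repertoires that held 0.5% or more of the counts of their library, 522 of 19962 entries. They were chosen by their measured share of counts alone. A TRBV1 clonotype listed in all 18 libraries (0.0582% to 4.89% of counts, and at or above 0.5% in 5 libraries) was left out. The remaining 19422 entries of the same libraries were what the expanded clonotypes were set against. CD8+ T cells were sorted from tumors of B16F10, a melanoma line of C57BL/6 origin, on day 14. The hosts were female C57BL/6 mice, 10 weeks after lethal irradiation and a marrow graft from Fscn1 knock-in donors. In the knock-in, sequences for the diphtheria toxin (DT) receptor and for Cre follow Fscn1, which encodes fascin, an actin bundler of mature dendritic cells, so the toxin can reach any graft-derived cell that expresses Fscn1. Every mouse carried this graft and received at least 1 antibody, at 200 µg on days 5 and 9. There were 2 libraries from the combination of anti-CD4 (GK1.5, which depletes CD4+ T cells) and anti-PD-L1 (10F.9G2, which blocks a ligand of PD-1, an inhibitory receptor of T cells) with DT, and 4 from the combination. Anti-PD-L1 with DT and anti-PD-L1 had 5 libraries each, and anti-CD4 with DT and anti-CD4 had 1 each.

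A beta chain gene is assembled in the thymus from a V, a D and a J segment, with bases trimmed from the ends and others inserted without a template. The CDR3 spans this joint and is the part of the chain that most often touches the peptide held by MHC class I on a tumor or presenting cell. A dividing T cell passes its rearranged sequence on, so an abundant sequence can mark a large clone, a clone with much receptor RNA per cell, or both. Uneven amplification can also raise a share of counts, and these cannot be told apart in bulk libraries.

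Of the 522 expanded entries, 512 were distinct by V segment and CDR3 amino acids, and 8 of these were expanded in more than 1 tumor. A TRBV13-2 clonotype was expanded in 3 tumors and the other 7 in 2 each. In 6 of the 8 every tumor had its own nucleotide sequence for the same protein, and in 2 the nucleotides were identical. The sequences are shown because they tell apart the same protein made by separate rearrangements from the same nucleotides listed in 2 libraries. Each runs 5′ to 3′ from the first to the last CDR3 codon, with capitals at the bases that differ between the entries of a clonotype; the identical ones have no capitals.
TRBV13-2 with TRBJ2-7, combination replicate 2: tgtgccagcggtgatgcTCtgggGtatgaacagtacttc
TRBV13-2 with TRBJ2-7, combination replicate 1: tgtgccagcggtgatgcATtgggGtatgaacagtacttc
TRBV13-2 with TRBJ2-7, anti-PD-L1 replicate 3: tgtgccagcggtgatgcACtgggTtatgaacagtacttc
TRBV5 with TRBJ2-7, anti-PD-L1 with DT replicate 5: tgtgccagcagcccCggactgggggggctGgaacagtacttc
TRBV5 with TRBJ2-7, anti-CD4 replicate 4: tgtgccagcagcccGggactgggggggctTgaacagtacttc
TRBV13-1 with TRBJ2-7, combination with DT replicate 3: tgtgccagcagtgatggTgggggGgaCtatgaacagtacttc
TRBV13-1 with TRBJ2-7, combination replicate 4: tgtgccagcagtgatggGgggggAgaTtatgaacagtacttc
TRBV19 with TRBJ1-1, anti-PD-L1 with DT replicate 4: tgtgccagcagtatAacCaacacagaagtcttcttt
TRBV19 with TRBJ1-1, anti-PD-L1 replicate 3: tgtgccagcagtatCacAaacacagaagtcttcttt
TRBV13-1 with TRBJ2-1, anti-PD-L1 with DT replicate 4 and anti-PD-L1 replicate 2: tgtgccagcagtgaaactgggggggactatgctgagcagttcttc
TRBV26 with TRBJ1-1, anti-PD-L1 with DT replicate 1 and anti-PD-L1 replicate 5: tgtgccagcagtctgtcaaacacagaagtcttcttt
TRBV4 with TRBJ2-5, anti-PD-L1 replicate 3, the more abundant entry: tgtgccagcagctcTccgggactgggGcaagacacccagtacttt
TRBV4 with TRBJ2-5, anti-PD-L1 replicate 3, the less abundant entry: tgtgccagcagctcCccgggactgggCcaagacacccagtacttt

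The TRBV13-2 clonotype of 3 tumors held 2.38% of counts in combination replicate 2 (95% Wilson interval 2.33% to 2.42%), 0.874% in combination replicate 1 and 1.19% in anti-PD-L1 replicate 3. Its 3 expanded sequences differed at 3 bases, all outside the bases assigned to V or J. The shared TRBV5 clonotype was the leading clonotype of anti-PD-L1 with DT replicate 5, at 30.8%, and held 1.86% of anti-CD4 replicate 4. The shared TRBV13-1 clonotype with TRBJ2-7 held 0.887% of combination with DT replicate 3 and 6.23% of combination replicate 4. The shared TRBV19 clonotype held 1.22% of anti-PD-L1 with DT replicate 4 and 2.98% of anti-PD-L1 replicate 3. The other clonotypes with separate sequences were 1 of TRBV13-1 with TRBJ2-4, at 2.01% of anti-PD-L1 with DT replicate 2 and 4.15% of anti-PD-L1 replicate 2, and 1 of TRBV12-2 with TRBJ2-7, at 2.37% of combination with DT replicate 3 and 0.649% of anti-PD-L1 replicate 2. Their sequences are not shown. In each of them the 2 tumors differed at 1 base, which was assigned to J in 1 tumor. In these 6 clonotypes the tumors that shared the protein had not been given the same treatment, except combination replicates 1 and 2. Most pairs of the 18 libraries also differed in treatment, since no group had more than 5.

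The 2 clonotypes with identical nucleotides had few or no inserted bases. That of TRBV26 had 0 inserted bases and no assigned D segment, and held 0.870% of anti-PD-L1 with DT replicate 1 and 2.73% of anti-PD-L1 replicate 5. That of TRBV13-1 with TRBJ2-1 had 1 inserted base and held 2.34% of anti-PD-L1 with DT replicate 4 and 0.579% of anti-PD-L1 replicate 2. Both were also listed, with other nucleotides, in tumors where they were not expanded. The TRBV26 clonotype was listed with the same nucleotides too, unexpanded, in anti-PD-L1 replicate 3 (92 counts) and combination replicate 3 (43 counts). The TRBV4 clonotype was expanded in a single library, anti-PD-L1 replicate 3, where both sequences for the same protein were expanded, at 1.30% and 1.09%.

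Total counts ran from 18713 (combination with DT replicate 3) to 4467183 (combination replicate 3), so the same 0.5% stood for 93.6 counts in the shallowest library and 22336 in the deepest. The lowest listed count was 9 in the series, and rarer clonotypes were therefore unseen in the remaining entries of shallow libraries. Intervals are 95% Wilson intervals of the counts and cover counting error only, since amplified copies are not independent cells; the widest among the expanded clonotypes spanned 1.28 percentage points. Among the remaining 19422 entries, 5 differed by 1 base from an expanded clonotype of the same library. Some expanded clonotypes were listed with the same nucleotides in other libraries. Of 90 same-nucleotide matches of an expanded clonotype in another library, 65 were at 100-fold fewer counts or less there, with a median ratio of 321 over all 90. Anti-CD4 replicate 4 stood apart, with 19 of its 31 expanded clonotypes listed in combination replicate 3 in this way. That library was the deepest and listed 27 of the 65 matches. Combination replicate 3 had 8 in anti-PD-L1 replicate 5, combination replicate 4 had 6 in anti-PD-L1 with DT replicate 1, and anti-PD-L1 replicate 5 had 5 in combination replicate 3. Whether such matches came from carry-over between libraries was not tested, and results that rest on sharing are given with and without them.

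**Figure D1:**
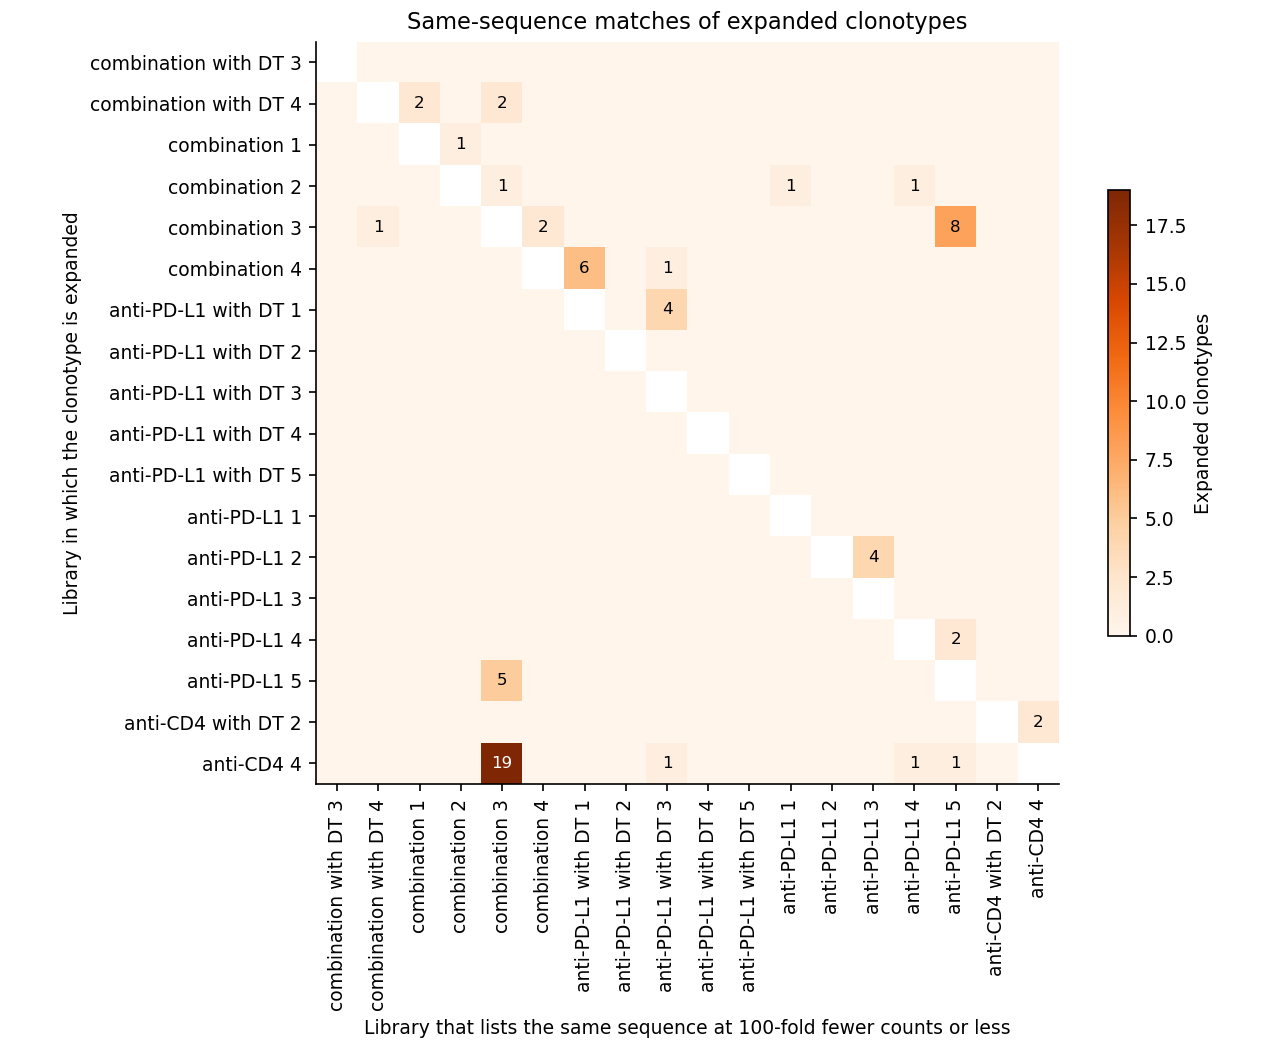
Number of expanded clonotypes of each library (vertical axis) whose exact nucleotide sequence was also listed in another library (horizontal axis) at 100-fold fewer counts or less; white squares are a library against itself. The 19 clonotypes of anti-CD4 replicate 4 in combination replicate 3 are the largest entry, followed by 8 of combination replicate 3 in anti-PD-L1 replicate 5.

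Expanded clonotypes were few but held most of the counts in 17 of 18 tumors. Per library there were 29 ± 6.90 of them (SD, n = 18), and together they held 76.8% ± 11.2 of counts. Their number was 25 and 32 in the combination with DT and 36, 31, 20 and 24 in the combination. It was 34, 28, 33, 23 and 32 in anti-PD-L1 with DT and 27, 38, 34, 23 and 39 in anti-PD-L1. The extremes were the 12 of anti-CD4 with DT replicate 2, and 39 in anti-PD-L1 replicate 5; anti-CD4 replicate 4 had 31. The groups with more than 1 library overlapped in number.

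Their summed share was 79.4% and 84.9% in the combination with DT, and 80.95%, 81.1%, 76.0% and 72.6% in the combination. It was 78.2%, 88.7%, 41.9%, 90.8% and 84.0% in anti-PD-L1 with DT, against 61.8%, 72.1%, 71.3%, 80.5% and 73.6% in anti-PD-L1. Anti-CD4 with DT replicate 2 had 85.5% and anti-CD4 replicate 4 had 79.5%. Anti-PD-L1 with DT thus held the highest and the lowest share of the 18 tumors, with a mean of 76.7% ± 20.1, against 71.9% ± 6.68 in anti-PD-L1 (SD, n = 5 each). The library at 41.9%, anti-PD-L1 with DT replicate 3, had as many expanded clonotypes as its group (33), but 21 of them lay under 1% and none reached 10%. The TRBV1 clonotype that was left out held 4.89% of that library, its highest level.

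**Figure D2:**
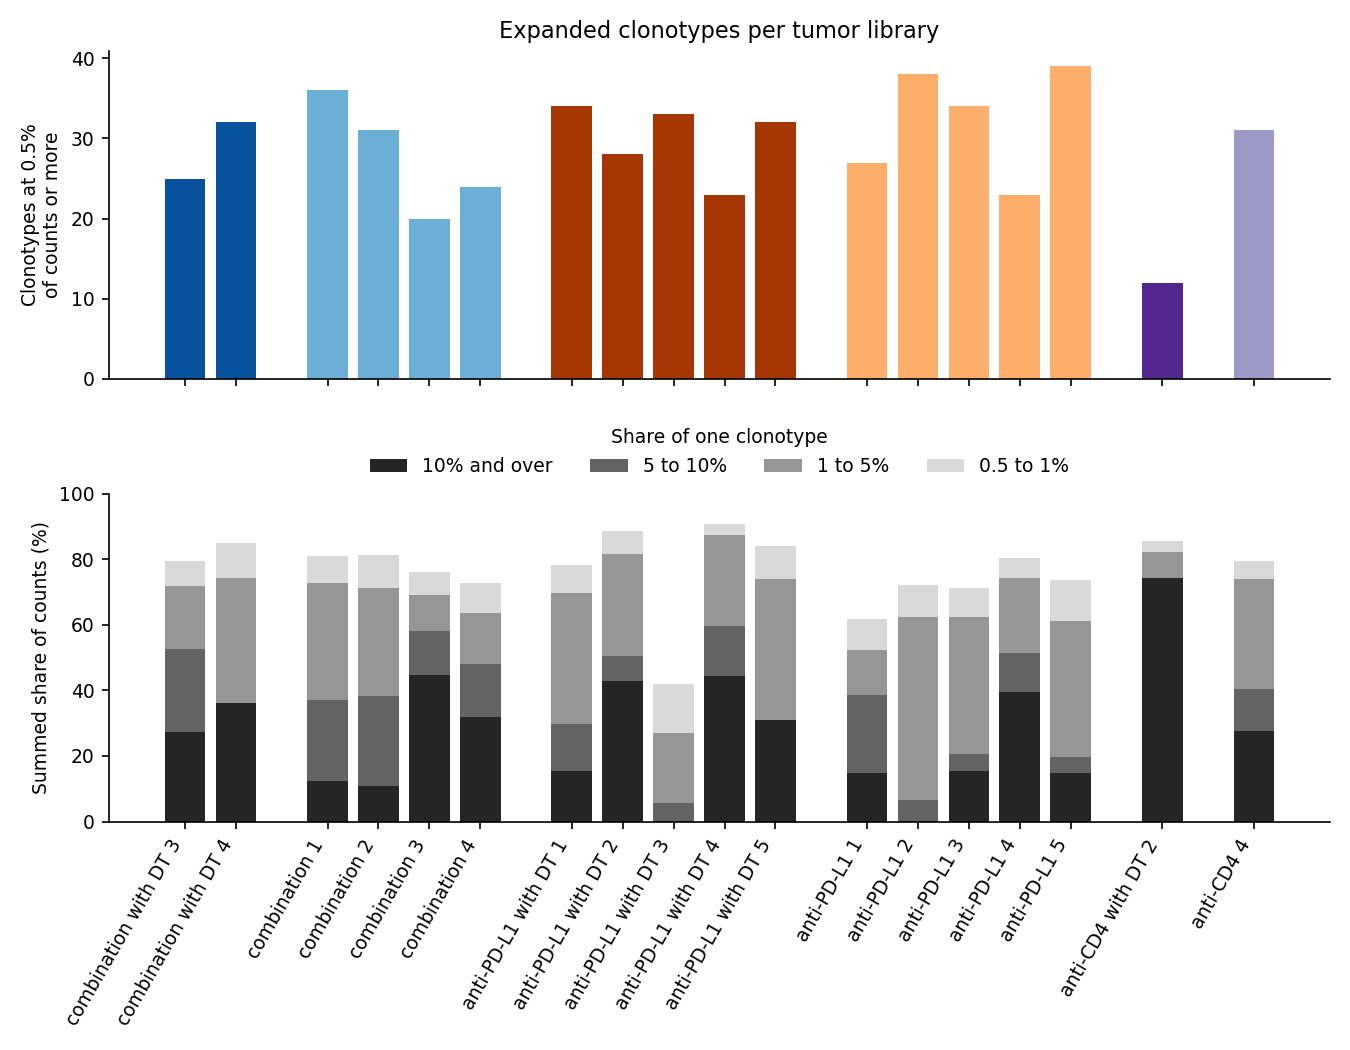
Number of expanded clonotypes (upper panel) and their summed share of counts in percent, split by the share of single clonotypes (lower panel), for each of the 18 tumor libraries, coloured by treatment in the upper panel. Numbers range from 12 to 39, and summed shares lie between 61.8% and 90.8% except for anti-PD-L1 with DT replicate 3 at 41.9%.

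Most expanded clonotypes were of modest size. There were 217 between 0.5% and 1% of counts, 250 between 1% and 5%, 32 between 5% and 10%, and 23 at 10% or more. The second most abundant clonotype of a library was smallest in anti-PD-L1 with DT replicate 3, where it used TRBV20 with TRBJ2-7 and held 4.24%, and largest in anti-PD-L1 replicate 4, where it used TRBV26 with TRBJ2-5 and held 18.9%. Also large were the second clonotypes of anti-PD-L1 with DT replicate 2 (TRBV14 with TRBJ1-1, 17.6%) and replicate 4 (TRBV13-1 with TRBJ2-5, 15.2%). In anti-CD4 with DT replicate 2 the second clonotype used TRBV13-2 with TRBJ2-5 and held 14.6%. No V segment and CDR3 was second in more than 1 library. At the threshold, clonotypes of TRBV5 with TRBJ2-3 (0.5003%, anti-CD4 replicate 4), TRBV15 with TRBJ2-2 (0.5035%, anti-PD-L1 with DT replicate 3) and TRBV20 with TRBJ2-5 (0.5037%, combination replicate 3) were just inside. Clonotypes of TRBV13-3 with TRBJ1-3 (0.4991%, anti-PD-L1 replicate 1), TRBV19 with TRBJ1-1 (0.4988%, combination replicate 1) and TRBV12-1 with TRBJ2-1 (0.4981%, anti-PD-L1 with DT replicate 3) were just outside.

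Next the shape and chemistry of the CDR3 were set against the remaining clonotypes of the same library, over distinct clonotypes, by a permutation test of the 18 paired library differences with adjustment over 10 measures. In length, middle residues and inserted bases no difference passed. Mean CDR3 length was 13.9 ± 0.251 amino acids in expanded clonotypes, against 14.0 ± 0.0880 in remaining ones (SD, n = 18), a difference of -0.0876 with 9 libraries on each side (permutation adjusted p = 0.468). Pooled over libraries, 14 residues was the commonest length on both sides, at 30.08% of expanded and 30.01% of remaining clonotypes, and lengths of 12 held 13.2% and 9.65%. No expanded CDR3 was under 10 or over 18 residues. The most abundant of the 10-residue CDR3s joined TRBV12-1, TRBV3 and TRBV4 to TRBJ2-7. The most abundant of the 18-residue CDR3s joined TRBV16 to TRBJ2-4, TRBV17 to TRBJ2-5 and TRBV5 to TRBJ2-7.

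The middle residues, those left after the first 4 and last 4 of the CDR3 are removed, are the ones most exposed to peptide, though they can include residues encoded by J. Their Kyte-Doolittle hydropathy, where higher is more hydrophobic, averaged -0.952 ± 0.150 per residue in expanded clonotypes and -0.974 ± 0.0489 in remaining ones (SD, n = 18; difference 0.0215, permutation adjusted p = 0.634). Library means of expanded clonotypes were lowest in combination replicate 4 (-1.18) and highest in anti-PD-L1 with DT replicate 5 (-0.667). Single clonotypes ran from -4, in a TRBV29 clonotype of combination replicate 1 and a TRBV12-1 clonotype of anti-PD-L1 replicate 3, to 1.98 in a TRBV14 clonotype of anti-PD-L1 replicate 5. Net charge of the same residues, counting lysine and arginine as positive and aspartate and glutamate as negative, averaged -0.398 ± 0.212 in expanded clonotypes and -0.358 ± 0.0384 in remaining ones (permutation adjusted p = 0.575). The commonest charge was 0 on both sides, in 43.3% of expanded and 43.6% of remaining clonotypes. Charge reached 3 in a TRBV19 clonotype of anti-PD-L1 with DT replicate 5 and in no other expanded clonotype. It was -3 in 8 clonotypes, of which a TRBV13-1 clonotype at 15.2% of anti-PD-L1 with DT replicate 4 was the most abundant.

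Inserted bases, those assigned to neither V, D nor J, numbered 3.57 ± 0.522 in expanded clonotypes and 3.71 ± 0.130 in remaining ones (SD, n = 18). The mean was lower in expanded clonotypes in 13 of 18 libraries, and the difference of -0.144 did not pass (permutation adjusted p = 0.468). Clonotypes with 0 inserted bases made up 9.16% of expanded and 9.29% of remaining ones per library (permutation adjusted p = 0.932). A TRBV19 clonotype of anti-PD-L1 with DT replicate 4 had the most inserted bases, 14. A D segment was unassigned in 23.2% of expanded and 22.3% of remaining clonotypes. The curves of length, charge and inserted bases were not themselves tested. Among the places where they parted, a charge of 2 was found in 3 expanded clonotypes (0.575%), against 2.00% of remaining ones.

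**Figure D3:**
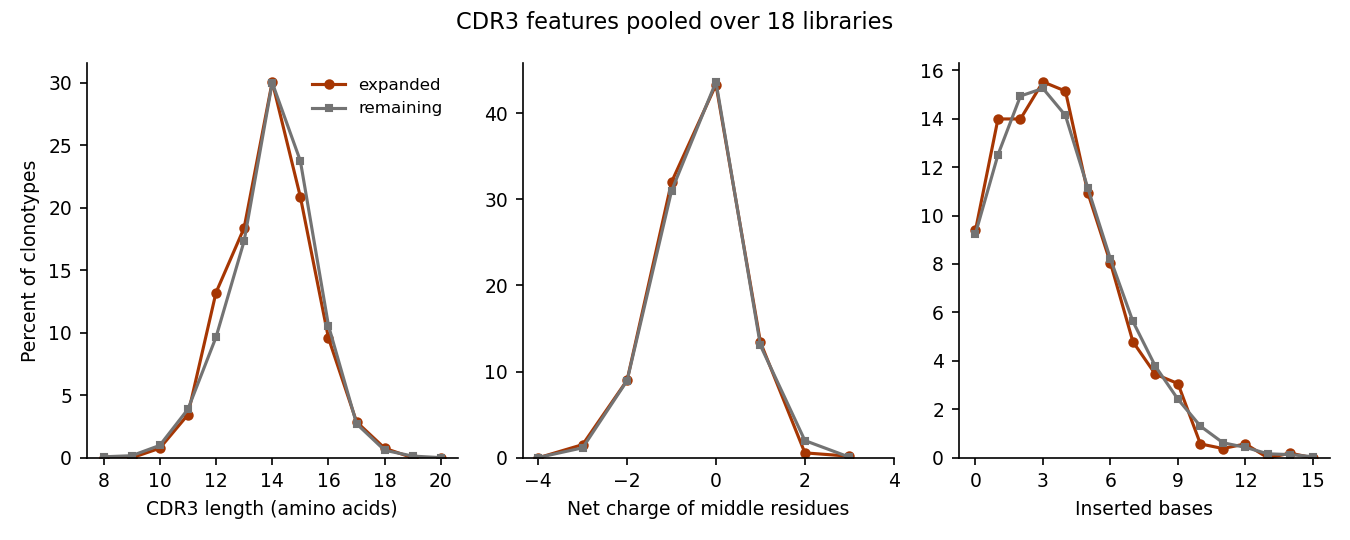
Percent of clonotypes by CDR3 length in amino acids (left), net charge of the middle residues (middle) and number of inserted bases (right), pooled over the 18 libraries, for the expanded clonotypes (circles) and the remaining ones (squares). Both curves peak at 14 amino acids, with 30.08% and 30.01% of clonotypes.

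A hydrophobic pair at CDR3 positions 6 and 7 (both residues among A, C, F, I, L, M, V, W and Y) was found in 12 expanded clonotypes. Per library it made up 2.29% ± 2.67 of expanded clonotypes, against 3.63% ± 0.775 of remaining ones (SD, n = 18), lower in 13 of 18 libraries and at 0 in 9. The difference of -1.34 percentage points did not pass (permutation p = 0.0392, adjusted p = 0.196), and its direction turned when members were taken at 0.2% or more (difference 0.149). With members at 1% or more it was -2.06 (permutation adjusted p = 0.0379), and without combination replicate 4 it was -1.67 (permutation adjusted p = 0.0337).

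By amino acid, 1 of 20 passed the test over the middle residues, which is 5% of those tested. Cysteine made up 0 of 3098 middle residues in expanded clonotypes, against 0.0598% ± 0.0514 per library in remaining ones (SD, n = 18; lower in 12 libraries and equal in 6; permutation adjusted p = 0.0118). A count of 0 allows up to 0.0968% in expanded clonotypes, above the level of the remaining ones, so the depth cannot show this difference. Threonine made up 7.84% of middle residues in expanded clonotypes and 6.47% in remaining ones, and glycine 22.4% and 21.6%, both without passing (permutation adjusted p = 0.190 and 0.445). Tyrosine made up 4.08% in expanded clonotypes and 5.26% in remaining ones, lower in 14 of 18 libraries (permutation adjusted p = 0.0724). Arginine made up 5.02% in expanded clonotypes and 5.80% in remaining ones (permutation adjusted p = 0.190). With members at 0.2% or more, 5 amino acids passed, with threonine and isoleucine higher and tyrosine, tryptophan and cysteine lower.

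V segments were compared on numbers of distinct clonotypes with edgeR's quasi-likelihood test, library as a block. Of 23 segments tested 4 passed, or 17.4%, with 1 higher and 3 lower among expanded clonotypes. TRBV19 (older name Vβ6) was the segment used most by expanded clonotypes, with 62 of the 522, and every library had at least 1. It made up 12.8% ± 8.90 of the expanded clonotypes of a library and 7.44% ± 2.35 of the remaining ones (SD, n = 18), higher in 13 of 18 libraries, a log2 difference in use of 0.71 (SE 0.24, edgeR adjusted p = 0.0240). The 62 TRBV19 entries used all 12 J segments and 61 distinct CDR3s. By treatment, TRBV19 made up 8% and 12.5% of the expanded clonotypes in the 2 libraries of the combination with DT, and 22.2%, 12.9%, 15% and 4.17% in the combination. Its range was 3.57% to 21.7% in anti-PD-L1 with DT, against 5.26% to 15.4% in anti-PD-L1. It was 41.7% in anti-CD4 with DT replicate 2, which is 5 of 12 clonotypes, and 12.9% in anti-CD4 replicate 4. TRBV19 was above the remaining level in 1 of 2 libraries of the combination with DT and 3 of 4 of the combination. It was so in 3 of 5 of anti-PD-L1 with DT, 4 of 5 of anti-PD-L1 and 1 of 1 in each anti-CD4 group. In the combination with DT it averaged 10.25% of expanded and 10.55% of remaining clonotypes. The TRBV19 call was lost without anti-CD4 with DT replicate 2 (log2 0.60, edgeR adjusted p = 0.0778) or combination replicate 1 (log2 0.64, edgeR adjusted p = 0.0570). It was also lost when remaining clonotypes were limited to those that every library's depth could list, at 0.0481% of counts or more (log2 0.39, edgeR adjusted p = 0.374) and with members at 1% or more (log2 0.65, edgeR adjusted p = 0.170). TMM scaling factors moved the median over V segments to log2 -0.57, against -0.10 as reported. TRBV19 then stood at log2 0.27 (edgeR adjusted p = 0.523), which is 0.83 above that median, against 0.81 above it as reported.

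TRBV13-3 (older name Vβ8.1) was lower among expanded clonotypes in 18 of 18 libraries. It made up 1.81% ± 2.29 of expanded clonotypes and 5.75% ± 1.15 of remaining ones (SD, n = 18), a log2 difference of -1.74 (SE 0.44, edgeR adjusted p = 0.00215). The 9 expanded TRBV13-3 clonotypes came from 8 libraries, and the largest held 7.50% of combination replicate 3. This call held under every alternative run, including the limit at 0.0481% of counts (log2 -1.43, edgeR adjusted p = 0.0346), with an adjusted p of at most 0.0346. The closely related TRBV13-1 and TRBV13-2 held 48 and 45 expanded clonotypes and did not pass (log2 0.49 and 0.31, edgeR adjusted p = 0.230 and 0.421). How the authors' caller divided sequences among these similar segments was not tested.

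TRBV29 (older name Vβ7) made up 2.49% ± 3.98 of expanded clonotypes and 5.59% ± 1.05 of remaining ones (log2 -1.27, SE 0.41, edgeR adjusted p = 0.0236), from 12 expanded clonotypes in 8 libraries. It was above the remaining level in 3 libraries, at 15% in combination replicate 3, 9.09% in anti-PD-L1 with DT replicate 3 and 4% in combination with DT replicate 3. TRBV12-2 (older name Vβ5.1) made up 3.38% ± 3.13 of expanded clonotypes and 6.93% ± 1.83 of remaining ones (log2 -0.93, SE 0.34, edgeR adjusted p = 0.0374). Its call was lost in 10 of the 18 fits that left out a library, with an adjusted p of up to 0.111. It was also lost with members at 1% or more (log2 -0.78, edgeR adjusted p = 0.234). With the limit at 0.0481% of counts neither passed (log2 -1.11 for TRBV29 and -0.54 for TRBV12-2, edgeR adjusted p = 0.0910 and 0.374). TRBV12-1, the other member of that family, held 47 expanded clonotypes and did not pass (log2 -0.10, edgeR adjusted p = 0.866).

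**Figure D4:**
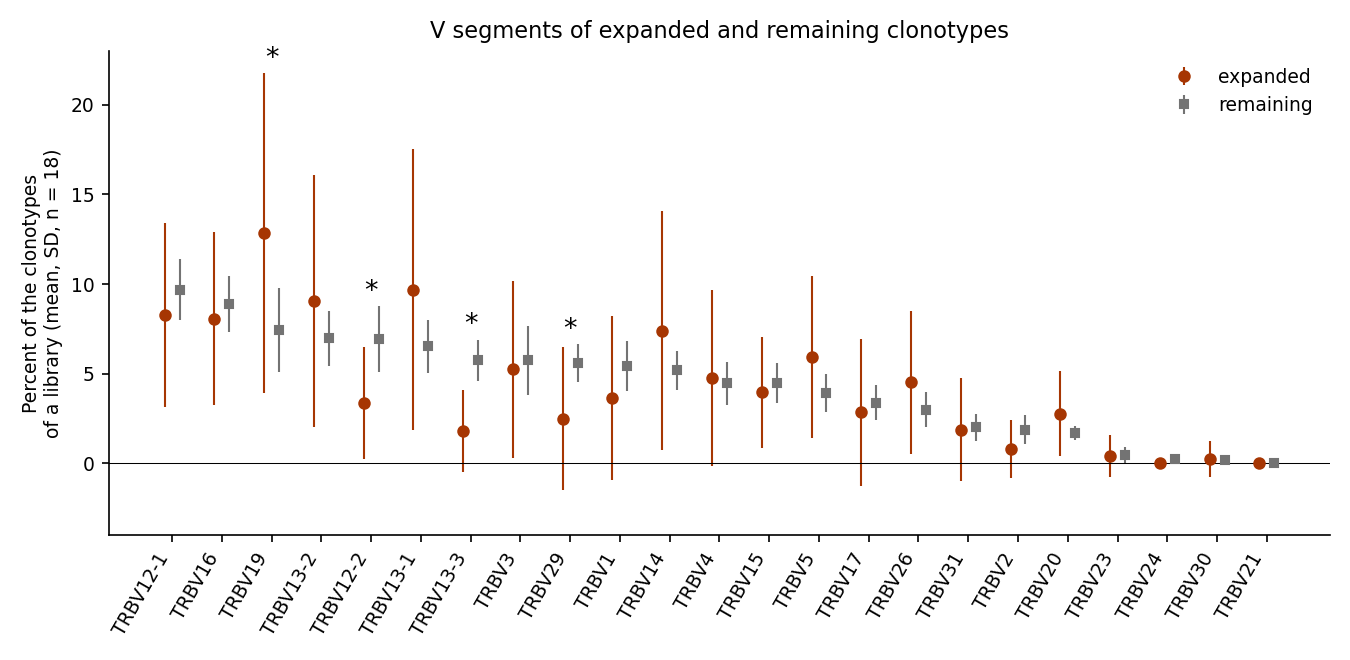
Percent of the distinct clonotypes of a library that used each of the 23 tested V segments, for expanded clonotypes (circles) and remaining ones (squares), as means with SD bars over 18 libraries; asterisks mark an edgeR adjusted p under 0.05. TRBV19 is higher among expanded clonotypes, at 12.8% and 7.44%, and TRBV12-2, TRBV13-3 and TRBV29 are lower.

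For J segments 0 of 12 passed (0%, edgeR), with 1 at an unadjusted p under 0.05, and DESeq2 also called 0. TRBJ1-1, in 70 expanded clonotypes, made up 14.3% ± 7.08 of them and 9.91% ± 1.36 of remaining ones (SD, n = 18; log2 0.45, SE 0.19, edgeR adjusted p = 0.256). It was higher in 14 of 18 libraries, and passed with members at 1% or more (log2 0.72, edgeR adjusted p = 0.0289) and at 0.2% or more (log2 0.40, edgeR adjusted p = 0.0386). The next largest positive fold changes were those of TRBJ2-3 and TRBJ2-2 (log2 0.21 and 0.19), and the largest negative ones those of TRBJ1-2, TRBJ1-6 and TRBJ2-7 (log2 -0.58, -0.42 and -0.17); none passed. TRBJ2-7 was the most used J segment on both sides, at 18.2% ± 8.36 of expanded and 21.1% ± 1.81 of remaining clonotypes. The TRBJ2 cluster as a whole made up 67.7% ± 10.1 of expanded and 69.3% ± 1.87 of remaining clonotypes (permutation adjusted p = 0.634).

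The expanded clonotypes used 173 V-J pairs of the 273 seen in the 18 libraries, 21 of 24 V segments and all 12 J segments. No V-J pair held more than 3 expanded clonotypes of a library. The pairs with most expanded clonotypes were TRBV13-1 with TRBJ2-1 (12 clonotypes in 6 libraries), TRBV13-2 with TRBJ2-7 (11 in 9), TRBV19 with TRBJ1-1 (11 in 6), TRBV12-1 with TRBJ1-1 (10 in 8) and TRBV16 with TRBJ2-7 (10 in 8). In edgeR 0 of 72 pairs passed (0%), with 5 at an unadjusted p under 0.05. DESeq2 called 1, TRBV13-1 with TRBJ2-1, which made up 2.50% ± 4.25 of expanded and 0.641% ± 0.424 of remaining clonotypes (SD, n = 18).

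Expanded clonotypes were listed in another tumor, by V segment and CDR3 amino acids, more often than remaining ones in 18 of 18 libraries. Of the 522, 128 were listed elsewhere, 75 of them with the same nucleotides and 53 with other nucleotides alone. Per library the share was 24.7% ± 14.9 of expanded clonotypes and 8.38% ± 2.60 of remaining ones (SD, n = 18), a difference of 16.3 percentage points (permutation adjusted p = 0.0004). The highest value, 70.97% in anti-CD4 replicate 4, is that of 22 of 31 clonotypes. It was 50.0% in combination replicate 3, and both are libraries with many of the 100-fold matches described above. Elsewhere it was lowest in anti-PD-L1 with DT replicate 4, at 8.70%, and at most 29.2%, in combination replicate 4. All 7 listed clonotypes of combination replicate 4 also had a 100-fold match. A clonotype shared by expanded entries counts in each library that holds it, so library values are not fully independent.

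Without the same-nucleotide matches at 100-fold fewer counts, the share was 13.8% ± 6.81 of expanded clonotypes and 8.10% ± 2.64 of remaining ones, higher in 15 of 18 libraries (difference 5.65 percentage points, permutation adjusted p = 0.0158). Counting matches through another nucleotide sequence alone, an alternative added after seeing the data, it was 12.2% ± 5.69 of expanded and 6.70% ± 2.29 of remaining clonotypes (difference 5.46, permutation adjusted p = 0.0063). With remaining clonotypes limited to 0.0481% of counts or more the difference was 11.5 percentage points (permutation adjusted p = 0.0026). The difference thus kept its direction and passed in all 3, but these did not apply the limit and the removal of matches together. Pooled and without the matches at 100-fold fewer counts, 15.9% of the 415 clonotypes at 0.2% to 0.5% were listed in another tumor. Among expanded clonotypes it was 15.7% at 0.5% to 1%, 13.2% at 1% to 5%, 9.38% at 5% to 10% and 21.7% at 10% or more. The clonotypes listed in most other libraries were the TRBV13-2 clonotype expanded in 3 tumors, in 7 (6 without same-nucleotide matches at 100-fold fewer counts), and clonotypes of TRBV26 with TRBJ1-1 and TRBV20 with TRBJ2-3, in 4 each with and without such matches.

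**Figure D5:**
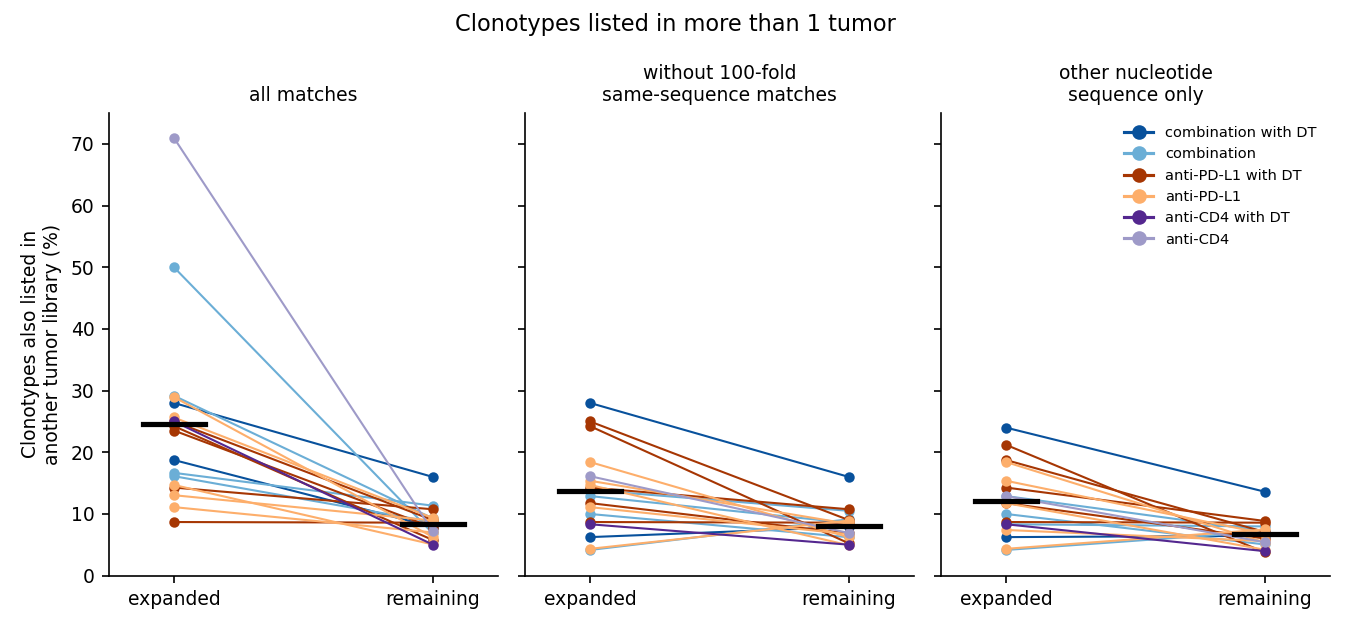
Percent of the expanded and of the remaining clonotypes of each library that were also listed in another tumor library, with lines joining values of a library and bars at the means, for all matches (left), without same-nucleotide matches at 100-fold fewer counts (middle) and for matches through another nucleotide sequence (right). Means are 24.7% and 8.38%, 13.8% and 8.10%, and 12.2% and 6.70% from left to right.

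Similar CDR3s, with the same V, J and length and 1 different amino acid, were counted in 2 ways. Against any entry of another tumor, 34.9% ± 8.38 of expanded clonotypes had a similar CDR3, against 30.2% ± 4.74 of remaining ones (SD, n = 18), higher in 12 of 18 libraries (permutation p = 0.0639, adjusted p = 0.213). A second nucleotide sequence for the same protein in the same library was listed for 9 expanded clonotypes, or 1.87% ± 3.07 per library, against 1.04% ± 0.889 of remaining ones (permutation adjusted p = 0.468).

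Among the expanded clonotypes alone there were 18 distinct pairs of similar CDR3s between tumors, in 13 groups, with 31 entries taking part in a pair. The different residue lay at positions 5 to 10 of the CDR3, counted from 1 at its first cysteine, and at positions 5 to 8 in 16 of the 19 pairs of entries. Sequences are shown for the 2 pairs with the largest shares and for the groups of more than 2 clonotypes, since they show where in the joint the tumors differ; capitals mark the bases that differ within a pair or group.
TRBV16 with TRBJ2-7, anti-PD-L1 with DT replicate 1: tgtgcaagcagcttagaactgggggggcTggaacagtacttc
TRBV16 with TRBJ2-7, combination replicate 2: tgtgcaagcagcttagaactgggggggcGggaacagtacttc
TRBV14 with TRBJ2-1, combination with DT replicate 3: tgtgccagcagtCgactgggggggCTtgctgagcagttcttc
TRBV14 with TRBJ2-1, combination replicate 2: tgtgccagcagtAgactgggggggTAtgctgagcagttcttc
TRBV12-1 with TRBJ1-3, combination replicate 2: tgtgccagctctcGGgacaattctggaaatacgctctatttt
TRBV12-1 with TRBJ1-3, anti-PD-L1 with DT replicate 5: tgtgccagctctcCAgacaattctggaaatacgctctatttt
TRBV12-1 with TRBJ1-3, anti-CD4 replicate 4: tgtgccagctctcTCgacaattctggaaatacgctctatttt
TRBV12-1 with TRBJ1-1, combination replicate 2, the more abundant entry: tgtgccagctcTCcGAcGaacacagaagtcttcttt
TRBV12-1 with TRBJ1-1, combination replicate 2, the less abundant entry: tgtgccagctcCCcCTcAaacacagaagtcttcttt
TRBV12-1 with TRBJ1-1, anti-PD-L1 replicate 3: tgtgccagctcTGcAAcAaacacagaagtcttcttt
TRBV12-1 with TRBJ1-1, anti-PD-L1 replicate 5: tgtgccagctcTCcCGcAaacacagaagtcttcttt

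The TRBV16 pair differed at a single base. It was the pair with the largest shares, 15.3% in anti-PD-L1 with DT replicate 1, where it was the leading clonotype, and 5.09% in combination replicate 2 (residue change L10R, the more abundant entry's residue first). The TRBV14 pair held 1.07% of combination with DT replicate 3 and 10.9% of combination replicate 2 (Y9L). A TRBV5 pair with TRBJ1-3 held 2.38% of anti-PD-L1 with DT replicate 2 and 4.80% of anti-PD-L1 replicate 3 (V8N). A TRBV3 pair with TRBJ1-4 held 4.10% of combination replicate 2 and 1.85% of anti-PD-L1 with DT replicate 3 (Q6G). The TRBV13-2 clonotype expanded in 3 tumors had a similar clonotype beside it at 2.04% of anti-PD-L1 with DT replicate 1 (L7H).

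TRBV12-1 gave 4 of the 13 groups. With TRBJ1-3, its clonotypes in combination replicate 2 (2.34%), anti-CD4 replicate 4 (1.45%) and anti-PD-L1 with DT replicate 5 (0.638%) differed from each other at position 5 alone (R5L, R5P and L5P). With TRBJ1-1, the clonotype of anti-PD-L1 replicate 5 (1.89%) was similar to both of combination replicate 2, at 0.726% (A6T) and 0.673% (A6S). The one of anti-PD-L1 replicate 3 (2.13%) was similar to the more abundant of these (A5P). The other TRBV12-1 pairs were with TRBJ1-4 (S8T) and TRBJ2-2 (T6A). The other pairs were in TRBV19 (M5W), TRBV20 (E6G), TRBV16 (R9Q) and TRBV26 (D6S), with shares of 0.523% to 2.12%. The TRBV26 pair joined a clonotype of anti-PD-L1 replicate 5 (0.934%) to the one expanded with identical nucleotides in 2 tumors, which also held 2.73% of that library. In all, 44 of the 522 entries, or 8.43%, were joined to an expanded clonotype of another tumor by the same or a similar CDR3, from 13 of 18 libraries.

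Finally, library means of the expanded clonotypes were compared between treatments for length, hydropathy, charge and inserted bases, by exact permutation tests adjusted over these 4. No source used states that replicates were separate mice, and the tests see only the spread among these samples, whose origin was not tested. No clonotype was expanded with identical nucleotides in 2 replicates of a group, since the 2 such clonotypes each joined libraries of different groups. Some expanded clonotypes were listed below the threshold with identical nucleotides in another replicate of their group, such as 4 of anti-PD-L1 replicate 2 in replicate 3. Neither shows whether replicates were separate mice. None of the 12 tests passed. For DT under anti-PD-L1 the mean number of inserted bases was 3.36 ± 0.193 in libraries with DT, against 3.86 ± 0.559 in those without it (SD, n = 5 each), at an exact permutation p of 0.0635 (adjusted p = 0.254). The groups overlapped, since 4.81 in anti-PD-L1 replicate 1 stood apart and the other 4 libraries without DT lay between 3.37 and 3.83, while those with DT lay between 3.12 and 3.62. Mean charge was -0.427 ± 0.237 with DT and -0.250 ± 0.222 without (exact adjusted p = 0.429), mean length 14.0 ± 0.0929 and 13.9 ± 0.249 (exact adjusted p = 0.519), and mean hydropathy -0.924 ± 0.165 and -0.937 ± 0.198 (exact adjusted p = 0.921). This comparison of 5 with 5 can give no p under 0.00794.

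For the combination against anti-PD-L1, inserted bases averaged 3.58 ± 0.480 and 3.86 ± 0.559, charge -0.434 ± 0.183 and -0.250 ± 0.222, length 13.8 ± 0.229 and 13.9 ± 0.249, and hydropathy -0.979 ± 0.135 and -0.937 ± 0.198 (SD, n = 4 and 5; exact adjusted p = 0.706 for each). For DT under the combination, with 2 libraries against 4, no p under 0.0667 is possible. Charge was -0.637 ± 0.0610 with DT and -0.434 ± 0.183 without, and inserted bases 3.92 ± 0.337 and 3.58 ± 0.480 (exact adjusted p = 0.622 for both). The 2 anti-CD4 groups had a single library each and were not compared; the expanded clonotypes of anti-CD4 with DT replicate 2 had the lowest mean length (13.2) and the fewest inserted bases (2.33) of the 18 libraries, over 12 clonotypes.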

How the data were processed

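Per the file headers, the deposited tables give for each clonotype a count, a fraction, the CDR3 and the V, D and J segments with their borders. The counts are whole numbers that the authors did not normalize, as deposited; whether they stand for reads or molecules is unstated. As deposited, the fraction of an entry is its count over the library total, within 9.95e-17. The submitters' processing notes name cutadapt 3.2; the clonotype caller, segment reference and genome build were not given in the sources used, so no coordinates are printed. Lymph node samples and tumor samples outside the 18 libraries were not analysed here.

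The rule for members and all lists were chosen with earlier results of these data known. Entries of a library were split at 0.5% of counts. Library differences (expanded minus remaining) were tested by sign-flip permutation, two-sided, with 100000 draws, and Benjamini-Hochberg adjustment over 10 measures or 20 amino acids. Segment use was tested with edgeR 4.0.16 in R 4.3.3 on distinct clonotypes, with the clonotype number as offset, for segments with at least 10 and V-J pairs with at least 100 clonotypes; DESeq2 1.42.0 was an alternative. Python 3.11.15, numpy 2.4.6, pandas 2.3.3 and scipy 1.17.1 did the rest. The tests were checked on simulated data. Named were all passing segments or else the 3 extremes each way, the 5 fullest V-J pairs, passing amino acids and the 2 extremes each way, recurrent and similar clonotypes, second and extreme clonotypes, and the 3 nearest the threshold on each side; the other amino acids and clonotypes named were chosen after their values were seen. Older segment names came from RefSeq's mouse gene table. Inserted bases were bases between the borders of V, D and J. Alternatives changed the threshold, the remaining entries, the middle residues, the filter and the scaling, and left out each library.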

Additional observations from a re-analysis of the deposited data

Results flagged for a closer look

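The expanded clonotypes held 41.9% of counts in replicate 3 of anti-PD-L1 with DT, while the other 4 libraries of that group lay between 78.2% and 90.8%. In all, 36 sets of library values were examined for a sample far from the others, and chance marks about 1 in 20 where values vary freely. That rate does not apply to the next measure, where all other libraries of the group were at 0 and a single clonotype is enough to stand apart. A second nucleotide sequence for the same protein was listed for 1 of 34 expanded clonotypes (2.94%) of anti-PD-L1 with DT replicate 1, and for 3 of 34 (8.82%) of anti-PD-L1 replicate 3, each against 0 in the other 4 libraries of its group. The difference between expanded and remaining clonotypes in this measure was -2.03 ± 0.494 percentage points in the combination and 1.006 ± 3.804 in anti-PD-L1 (SD, n = 4 and 5), a difference between groups of -3.04 (exact permutation p = 0.0476, adjusted over 10 measures p = 0.476). With replicate 3 of anti-PD-L1 left out it was -1.37, at an exact permutation p of 0.0286, and the anti-PD-L1 mean was -0.667 ± 0.801 (SD, n = 4). The difference between groups ranged from -3.69 to -2.80 with each of the other libraries left out, an alternative added after seeing the data. Its exact permutation p was 0.179 to 0.214 with a combination library left out. With another anti-PD-L1 library left out it was 0.0286. In the combination 4 of 4 libraries listed no second sequence for an expanded clonotype. Their differences were therefore below 0 by the level of the remaining clonotypes alone, which averaged 2.03%.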

How the results depend on the processing

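The higher share of expanded clonotypes listed in another tumor kept its direction and passed in all 26 alternatives, at 5.46 to 23.7 percentage points, as did the lower use of TRBV13-3 in all 25. For the share listed, the limit at 0.0481% of counts and the removal of 100-fold matches were not applied together. Without those matches 15.9% of clonotypes at 0.2% to 0.5% were listed elsewhere, against 9.38% to 21.7% in the size classes of expanded clonotypes. Members at 0.2% or more and at 1% or more numbered 52.1 and 16.9 per library. With members at 0.2% or more the hydrophobic pair differed by 0.149, 5 amino acids and 2 J segments passed, TRBJ2-2 was at log2 -0.17, the combination against anti-PD-L1 differed by 0.0137 in length and 0.0591 in hydropathy, and DT under the combination by -0.0202 in hydropathy. With members at 1% or more charge differed by 0.0118, clonotypes without inserted bases by 0.0993, the hydrophobic pair by -2.06 (permutation adjusted p = 0.0379), TRBJ2-3 by log2 -0.40, and 1 J segment passed. With remaining clonotypes at 0.0481% or more (2100 of 19422), clonotypes without inserted bases differed by 0.384, the TRBJ2 cluster by 0.0849 and second nucleotide sequences by -0.122, 1 V segment passed, and too few V-J pairs were left to test. Without the libraries below the median total, hydropathy differed by -0.00245. With the first 3 and last 3 residues removed, 4 amino acids passed. DESeq2 called 7 V segments, 4 higher and 3 lower, and 1 V-J pair. Of the 4 higher, TRBV21, TRBV24 and TRBV30 had at most 1 expanded clonotype each. In edgeR these 3 were at log2 -1.59, -3.56 and -0.12, so their DESeq2 calls are not read as higher use. TMM factors moved the median log2 value to -0.57 over V segments, against -0.10 as reported, and to -2.26, against -0.10, over V-J pairs, so calls under them are read relative to that shift. With them 3 V segments passed, 0 higher and 3 lower, against 1 higher and 3 lower as reported, 70 V-J pairs passed, all lower, and TRBJ2-2 and TRBJ2-3 were at log2 -0.045 and -0.034. As expanded minus remaining, DT under anti-PD-L1 differed by -0.00732 in hydropathy. The causes of these changes were not tested.

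With each library left out in turn, clonotypes without inserted bases differed by -0.894 to 0.404 and the hydrophobic pair by -1.67 to -1.18. The number of amino acids passing was 1 to 4, of V segments 2 to 4, and of V-J pairs 0 to 1. Hydropathy differed by -0.0511 to 0.0738 for DT under anti-PD-L1, by -0.0625 to 0.0363 for DT under the combination, and by -0.0967 to 0.0240 between combination and anti-PD-L1, where length differed by -0.154 to 0.0284. The number of amino acids passing was above 1 without combination replicate 3 (3), combination replicate 4 (2), anti-PD-L1 with DT replicate 1 (2) and replicate 5 (4), or anti-PD-L1 replicate 1 (2), and 2 V segments passed without anti-CD4 with DT replicate 2. A V-J pair, TRBV13-1 with TRBJ2-1, passed without anti-CD4 replicate 4, anti-PD-L1 replicate 3 or anti-PD-L1 replicate 5. Correlations of same-numbered samples over V segments ran from -0.273 to 0.155. With 2 to 5 pairs per comparison, they cannot show whether same-numbered samples were handled together. With the replicate number as a block no treatment comparison passed, and hydropathy for the combination against anti-PD-L1 differed by 0.0183 (exact permutation adjusted p = 1). Without the library block edgeR called the same number of V segments, 4. The depth of a library limits how rare a listed clonotype can be, and 12 expanded clonotypes are the fewest behind a library mean.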

Other observations

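By size class, the share of expanded clonotypes listed in another tumor depended on the same-nucleotide matches at 100-fold fewer counts. With all matches, 14 of the 23 clonotypes at 10% of counts or more were listed (60.9%), 11 of the 32 between 5% and 10% (34.4%), 63 of the 250 between 1% and 5% (25.2%) and 40 of the 217 between 0.5% and 1% (18.4%). Without those matches, left out after seeing the data, the numbers were 5 (21.7%), 3 (9.38%), 33 (13.2%) and 34 (15.7%), with no steady order by size. A match at 100-fold fewer counts needs an expanded clonotype with at least 100 times the lowest listed count, 9. The 0.5% threshold stood for 93.6 counts in the shallowest library, so small clonotypes of shallow libraries could lose no match. Part of the change in order thus follows from the rule. The 415 clonotypes just below, at 0.2% to 0.5%, had 17.3% with all matches and 15.9% without those at 100-fold fewer counts. The shares that define the classes also chose the members, so no test was made. Clonotypes without inserted bases made up 0 of the 23 largest, a count that allows a share of up to 13.04%, and 9.38% of those between 5% and 10%, 10.4% of those between 1% and 5% and 9.22% of those between 0.5% and 1%. Mean CDR3 length in these 4 classes was 14.2, 14.0, 13.8 and 14.1 amino acids.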
